A study of Mus musculus with 6 samples.

Results

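miR-21a is the mouse form of miR-21, a microRNA (miRNA) studied in the injured heart for its links to cell survival and fibrosis. The 2 arms of its hairpin, mmu-miR-21a-5p and mmu-miR-21a-3p (mmu for mouse, left out below), were taken by name from a table of 2009 miRNA names. The series holds 6 small RNA libraries from male mouse hearts, 3 after ischemia and reperfusion (I/R) and 3 after a sham procedure. All hearts were isolated and perfused through the aorta on a Langendorff system. I/R hearts were stopped with cardioplegia for 30 min and reperfused for 1 h, while sham hearts went on beating. The labels give no strain or age, and the extraction protocol in the labels names poly(A) mRNA kits although the titles say miRNA-seq.

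A miRNA hairpin is cut into a duplex of 2 short strands. One strand, the guide, stays in an Argonaute protein and represses mRNAs that pair with its seed, bases 2 to 8, while the other strand is mostly lost. The 5p strand is the usual guide of miR-21. In the heart it is known from fibroblasts, where it represses Spry1, an inhibitor of ERK signalling, and from heart muscle cells, where it represses Pdcd4, a protein that promotes cell death. The mRNAs of these targets were not measured in these libraries.

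The sequences show which RNA each name counts and which names could share its seed. Both members were found in the RefSeq table (GRCm38.p6), and capitals mark the seed.
miR-21a-5p: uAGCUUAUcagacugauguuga
miR-21a-3p: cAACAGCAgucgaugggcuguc
miR-21c: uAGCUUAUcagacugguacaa
miR-21b: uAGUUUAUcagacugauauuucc
Both arms lie on the minus strand of chromosome 11 (GRCm38), miR-21a-5p at chr11:86584120-86584141 and miR-21a-3p at chr11:86584082-86584103. Their hairpin, chr11:86584067-86584158, lies within exon 12 of Vmp1 on the same strand, in the part annotated as untranslated region (GENCODE vM21). Vmp1 encodes a membrane protein of autophagy. The RefSeq table held a sequence for 1679 of the 2009 names. Within that table, miR-21c from chromosome 8 was the other mature miRNA with the 5p seed, and no other sequence had the 3p seed. miR-590-5p has no entry there, and it was listed at 0 reads in all 6 libraries. Counted from 1 at the 5′ end of miR-21a-5p, miR-21c differs by A16G, G18A, U19C, U20A and G21A, all outside the seed. miR-21b, from chromosome 3, differs by C4U within the seed and by G18A, G21U and A22C; it was outside the naming rule and was chosen after its values were seen.

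miR-21a-5p was one of the most abundant miRNAs of these hearts in both groups. It had 22550, 24452 and 29109 reads per 1000000 reads (RPM) in I/R replicates 1 to 3, against 18965, 22910 and 22889 RPM in sham replicates 1 to 3. I/R replicate 3 was the highest and sham replicate 1 the lowest library, and the groups overlapped, since I/R replicate 1 lay below sham replicates 2 and 3. Means were 25370 ± 3374 RPM in I/R hearts and 21588 ± 2271 RPM in sham hearts (SD, n = 3 each). The libraries held 7874103 to 9197869 reads, and each value rested on 174441 to 229206 reads, so that the counting error was at most 0.239% of a value, against a spread between hearts of 13.3% in I/R and 10.5% in sham (SD as a share of the mean).

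**Figure D1:**
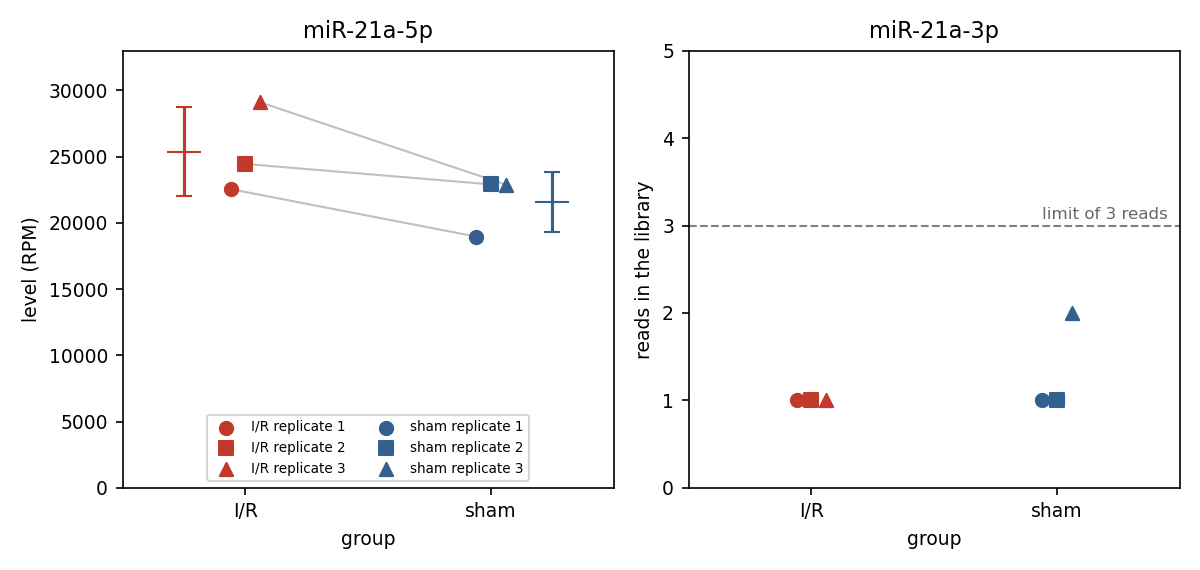
Left, level of miR-21a-5p in RPM in each library, with means and SD beside the points and lines that join libraries of the same replicate number. Right, whole reads of miR-21a-3p in each library, with a dashed line at 3 reads. The 5p points range from 22550 to 29109 RPM in I/R and from 18965 to 22910 RPM in sham, while the 3p arm has 1 read in 5 libraries and 2 reads in sham replicate 3.

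Whether miR-21a-5p differs after I/R was tested with limma on log2(RPM + 1) across all 409 names kept, and it did not pass. The log2 fold change of I/R over sham was 0.23 (SE 0.11, 95% interval -0.02 to 0.48, n = 3 each), with an unadjusted p of 0.0643 and a Benjamini-Hochberg adjusted p of 0.598 in limma. On the linear scale this is 1.17-fold, with an interval of 0.988 to 1.39, so a rise of more than 1.39-fold lay outside this interval. That upper end depends on the setting. On the log2 scale it was 0.27 with quantile normalization and 0.58 in limma without trend. At an adjusted p under 0.05, limma called 0 of the 409 names (0%), at an unadjusted p under 0.05 it had 29 higher (7.09%) and 1 lower (0.244%). edgeR called 0, while its unadjusted p was below 0.05 for 11 names on the higher side and 15 on the lower side. DESeq2 called 2 names, neither of them a miR-21a arm. Where 1 library was left out, the log2 fold change was 0.13 without I/R replicate 3 and 0.14 without sham replicate 1.

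The labels number the hearts of each group 1 to 3, and miR-21a-5p differed in the same direction for each number. It was higher in the I/R library by 0.25 on the log2 scale for number 1, by 0.09 for number 2 and by 0.35 for number 3. The same held for 109 of the 409 names (26.7%), so this order alone does not set miR-21a-5p apart. With the replicate number as a block, limma gave miR-21a-5p an interval of 0.07 to 0.39, an unadjusted p of 0.00885 and an adjusted p of 0.213, which is still above the threshold, while 4 of 409 names (0.978%) passed.

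The level of miR-21a-5p stood against a general shift of these values. The deposited values sum to the same total in every library, and the median log2 fold change of all names tested was 0.10, with 287 of 409 above 0. Relative to that median, miR-21a-5p was higher by 0.13. Under TMM scaling, which sets the bulk of the names level between libraries, the median of all names moved by -0.11 and the log2 fold change of miR-21a-5p was 0.12, and with totals taken without miR-1a-3p and its companion miR-1b-5p it was 0.16. The sign was positive under all 5 scalings run, and relative to the median of all names it lay between 0.11 and 0.12.

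**Figure D2:**
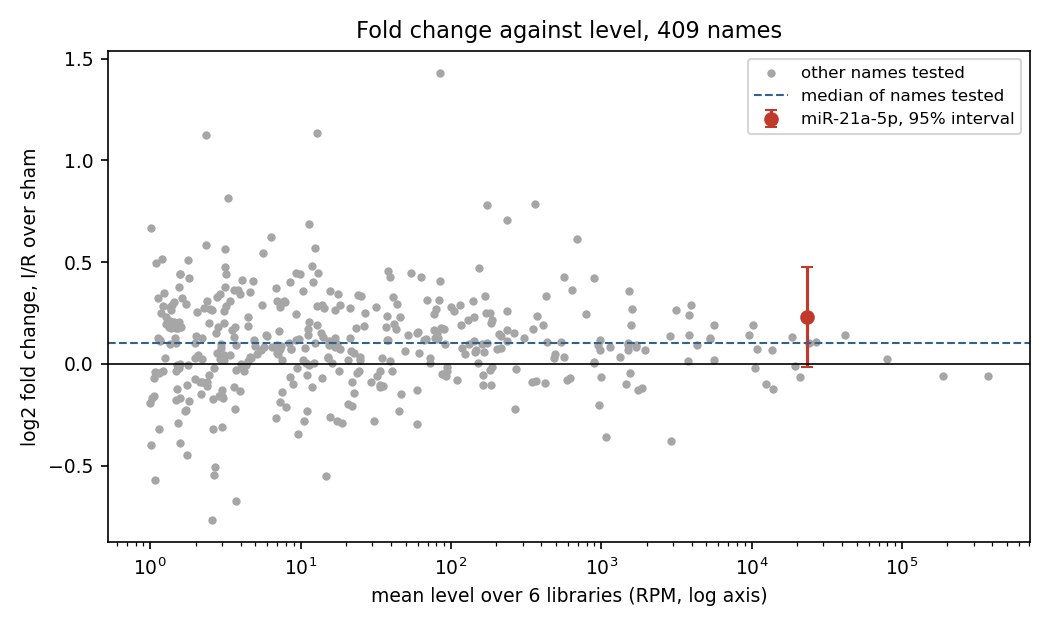
Log2 fold change of I/R over sham (vertical) against mean level in RPM (horizontal, log axis) for the 409 names tested, with the 95% interval of miR-21a-5p and the median of all names as a dashed line. miR-21a-5p lies at 0.23, above the median of 0.10, and its interval of -0.02 to 0.48 includes both 0 and that median.

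**Figure D3:**
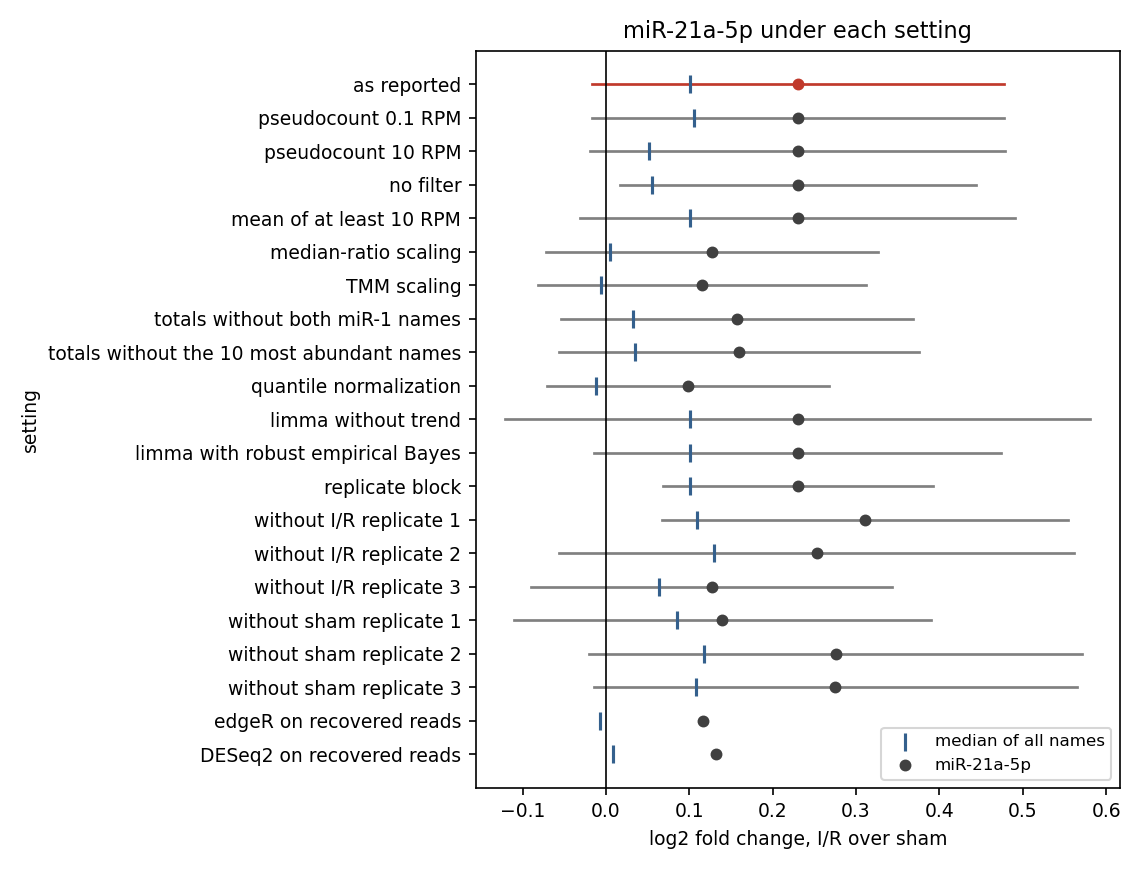
Log2 fold change of miR-21a-5p, I/R over sham, as reported (top) and under each of 20 alternatives, with 95% intervals where the method gives them and the median of all names as a tick. All points lie between 0.10 and 0.31, on the positive side, and the scalings move miR-21a-5p and the median of all names together.

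Among abundant miRNAs, miR-21a-5p was on the higher side of the fold changes and of the spread. Of 45 names with at least 1000 RPM on average, 5 had a larger fold change, and the median of the 45 was 0.08. Over all 409 names, 110 had a larger one. The SD of its log2 level within groups, pooled over both, was 0.17, against a median of 0.11 for the 45 names, and 9 of them varied more.

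Ratios to other abundant miRNAs within a library do not depend on the scaling. miR-21a-5p stood 7th in the mean level over the 6 libraries, at rank 7, 6 and 6 in I/R replicates 1 to 3 and at rank 8, 7 and 6 in sham replicates 1 to 3. Its upper neighbour, miR-378a-3p, lies in an intron of Ppargc1b, a regulator of energy metabolism. miR-21a-5p had 0.918, 1.04 and 1.08 times its reads in I/R replicates 1 to 3 and 0.824, 0.941 and 1.01 times its reads in sham replicates 1 to 3. The order of the pair changed between libraries, with miR-21a-5p above in 3 of 6.

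The lower neighbour was miR-30d-5p, a miRNA abundant in heart muscle. miR-21a-5p had 1.13, 1.17 and 1.43 times its reads in I/R replicates 1 to 3 and 0.806, 1.15 and 1.10 times its reads in sham replicates 1 to 3. It was thus above miR-30d-5p in all libraries but sham replicate 1. The mean log2 ratio was 0.30 ± 0.19 in I/R and 0.0080 ± 0.28 in sham (SD, n = 3 each). The groups overlapped, since I/R replicate 1 lay below sham replicate 2. The difference of means gave a two-sided exact permutation p of 0.2, where 0.1 is the smallest that 3 against 3 libraries allow. For each replicate number the ratio was higher in the I/R library than in the sham library, to both neighbours, and 3 pairs allow no exact p below 0.25. Neither neighbour was separated from miR-21a-5p beyond the spread between libraries.

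**Figure D4:**
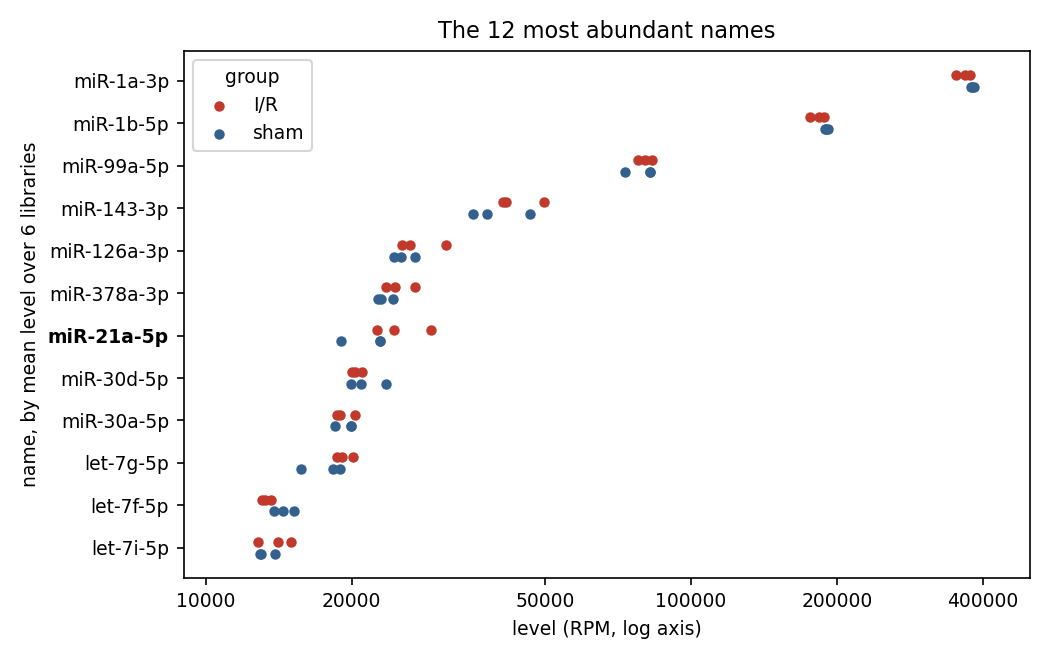
Levels in RPM (log axis) of the 12 names with the highest mean over the 6 libraries, 1 point per library, I/R above sham within each name. miR-21a-5p is 7th, and its points, from 18965 to 29109 RPM, overlap those of miR-378a-3p above and miR-30d-5p below.

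Both arms together held 2.54 ± 0.34% of all reads in I/R hearts and 2.16 ± 0.23% in sham hearts (SD, n = 3 each). The difference of 0.378 percentage points gave a two-sided exact permutation p of 0.3. Nearly all of it was the 5p arm. The names miR-1a-3p, of muscle, and miR-1b-5p hold more than any other names. miR-1b-5p followed miR-1a-3p closely, at a mean of 182563 against 365121 RPM in I/R and 190133 against 380232 RPM in sham. Whether the 2 names count the same reads was not tested, and the reads of both enter the totals and ranks given here. Of the reads without them miR-21a held 5.60 ± 0.51% in I/R and 5.02 ± 0.49% in sham hearts (exact permutation p = 0.3). The share difference without I/R replicate 3 was 0.191 points, and without sham replicate 1 it was 0.247 points.

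The 3p arm had next to no reads in these libraries. miR-21a-3p had 1 read in each of I/R replicates 1 to 3, against 1, 1 and 2 reads in sham replicates 1 to 3. All 6 libraries thus lay under the limit of 3 reads, which corresponds to 0.326 to 0.381 RPM, and no fold change is given. It did not reach the mean of 1 RPM needed for the test, so that 1 of the 2 members was tested. Of the miR-21a reads, the 3p arm made up 3 of 613999 in I/R hearts, or 0.000489% (95% exact Clopper-Pearson interval 0.000101% to 0.00143%). In sham hearts it made up 4 of 562540, or 0.000711% (0.000194% to 0.00182%). The intervals overlap, and they cover counting error only. No source used here names a small RNA kit or adapter settings, and their part in the count of the 3p arm was not tested.

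Set against other hairpins, this arm share was among the lowest. In 31 precursors whose more abundant arm had at least 1000 RPM, the rarer arm held between 0.000128% and 47.1% of the reads, with a median of 0.217%. For miR-21a it was 0.000595% over all libraries (95% exact Clopper-Pearson interval 0.000239% to 0.00123%), second from the lowest after miR-1b, and 4 other precursors had intervals that overlap its own. One of these is miR-99a, with 30 reads of the rarer arm beside 4023995 of the 5p arm. By contrast, miR-378a and miR-126a, which are about as abundant as miR-21a, had 1.12% and 1.81% in the rarer arm. Precursors were matched by name, so a mature sequence made by several hairpins, or counted under several names, can distort a share. Both ends of the range are open to this. At the low end, miR-1b-5p followed miR-1a-3p in level. At the high end, miR-486a-5p and miR-486b-3p both averaged 1504 RPM, and miR-486a-3p and miR-486b-5p averaged 1691 and 1699 RPM. Whether these names count the same reads was not tested, so the place of miR-21a after miR-1b is a description by name.

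**Figure D5:**
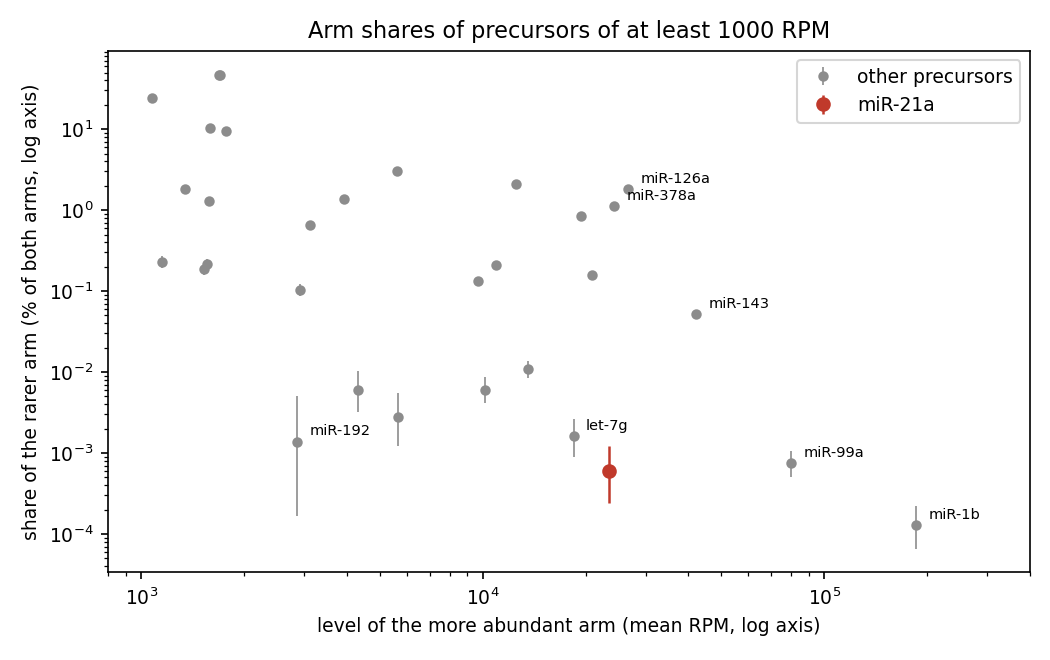
Share of the rarer arm in the reads of both arms (vertical, log axis, with 95% exact Clopper-Pearson intervals) against the level of the more abundant arm (horizontal, log axis) for 31 precursors, summed over the 6 libraries. miR-21a, at 0.000595%, lies near the bottom with miR-1b and miR-99a, while miR-378a and miR-126a at a similar level lie at 1.12% and 1.81%.

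The balance of the arms could not be followed across hearts. Arm balance was fitted in 94 precursors with both arms above the filter, of which limma called 0 and had 6 at an unadjusted p under 0.05, and miR-21a was not among them. Across the 6 libraries the log2 levels of the arms gave Pearson's r = 0.06 (exact permutation p = 0.799) and Spearman's rho = 0.54 (exact permutation p = 0.297), and r = -0.22 without the 2 libraries farthest from the median of the 5p arm. With 1 or 2 reads of the 3p arm, these values carry next to no information.

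The near relatives of miR-21a-5p added few reads to its seed. miR-21c had 2, 1 and 0 reads in I/R replicates 1 to 3, against 3, 0 and 1 reads in sham replicates 1 to 3. miR-21a-5p therefore held 99.9995% of the reads of both names in I/R hearts and 99.9993% in sham hearts. miR-21b had 0 reads in I/R hearts, which allows up to 0.366 to 0.381 RPM per library, and 4 reads in sham hearts, 2 each in replicates 1 and 2.

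Some miRNAs followed the level of miR-21a-5p from library to library. Likeness was measured as Pearson's r of log2(RPM + 1) over the 6 libraries, among 113 names of at least 100 RPM, whose median r was 0.42. The points share library, depth and total, so the values are a description. The highest was miR-7a-5p, known from neurons and endocrine cells (r = 0.96, rho = 0.94). It was followed by miR-27a-3p of the miR-23a/27a/24-2 cluster (r = 0.95, rho = 0.60), miR-152-3p of the miR-148/152 family (r = 0.94, rho = 0.83), miR-379-5p of the imprinted Dlk1-Dio3 cluster (r = 0.94, rho = 1) and miR-199a-3p, a miRNA of fibroblasts (r = 0.94, rho = 0.94).

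In these 5 names, too, sham replicate 1 was the lowest library and I/R replicate 3 the highest. miR-199a-3p had 1587, 1744 and 1863 RPM in I/R replicates 1 to 3, against 1183, 1592 and 1563 RPM in sham replicates 1 to 3. miR-7a-5p had 168, 175 and 194 RPM in I/R replicates 1 to 3, against 160, 173 and 167 RPM in sham replicates 1 to 3. The groups overlapped for both, while those of miR-27a-3p, at 5728 to 6461 RPM in I/R and 4912 to 5422 RPM in sham, and of miR-152-3p, at 1594 to 1754 RPM in I/R and 1354 to 1556 RPM in sham, did not overlap, as was the case for 11.2% of all names on the higher side. For miR-21a-3p the names with the highest r were miR-29a-3p (0.98), let-7f-2-3p (0.77) and miR-30f (0.75) among 232 names of at least 10 RPM, an order set by the 1 library with 2 reads.

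Lists of miRNAs studied in heart injury and fibrosis are described by their fold changes, since limma called 0% of all names. Of 23 injury-linked miRNAs 21 were tested, 0 passed in limma, and 12 were positive and 9 negative, with a median log2 fold change of 0.0058 against 0.10 for all names. All 20 fibrosis-linked miRNAs were tested and 0 passed. Their median was 0.0019, from 10 positive and 10 negative values. At 0.23, miR-21a-5p, which is in neither list, was above all but 2 of the 21 injury-linked and all but 3 of the 20 fibrosis-linked miRNAs tested. The lists share members such as miR-214-3p. Over all 409 names, 110 had a larger fold change than miR-21a-5p, which itself did not pass. The members with the smallest p were miR-27a-3p (log2 fold change 0.19, SE 0.08), miR-214-3p, which is made with miR-199a in fibroblasts (0.43, SE 0.20), and miR-199a-3p (0.27, SE 0.13), each with a limma adjusted p of 0.598. miR-214-3p had 37.1, 40.1 and 59.6 RPM in I/R replicates 1 to 3, against 32.8, 28.3 and 38.3 RPM in sham replicates 1 to 3, and the groups overlapped by 1 library.

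Whole hearts mix several cell types, and fewer cells of a type and less RNA per cell cannot be told apart in such samples. Cardiomyocyte markers were abundant. The 5 of them summed to 357830 to 383233 RPM in I/R and 385460 to 389859 RPM in sham hearts, most of it miR-1a-3p, and these ranges did not overlap. Within this list, only miR-1a-3p itself did not overlap, at 351573 to 375821 RPM in I/R and 378281 to 382877 RPM in sham. The share of all names that lay lower without overlap was not counted, so this order alone does not set miR-1a-3p apart. Names outside this list lay lower without overlap as well, among them miR-1b-5p, let-7f-5p, miR-22-3p and miR-133a-5p. On the higher side, 46 of 409 names (11.2%) did not overlap. RPM values are parts of a fixed total, and a loss of heart muscle cells or of their RNA was not tested. None of the 5 passed in limma, and the smallest p were those of miR-133a-3p (log2 fold change -0.36, SE 0.23) and miR-1a-3p (-0.06, SE 0.04). The 5 fibroblast and smooth muscle markers, led by miR-143-3p, summed to 42928 to 51901 RPM in I/R and 36923 to 48559 RPM in sham, with 4 of 5 positive and a median of 0.20. The 2 endothelial markers summed to 25829 to 31830 RPM in I/R and 24893 to 27478 RPM in sham, with log2 fold changes of 0.11 for miR-126a-3p and 0.05 for miR-126a-5p. The part of these cell types in the level of miR-21a-5p was not tested.

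Blood cell markers were scarce beside miR-21a-5p. The 5 leukocyte markers summed to 119 to 122 RPM in I/R and 109 to 144 RPM in sham, with 2 positive, 3 negative and a median log2 fold change of -0.0070. Among them miR-155-5p, of activated immune cells, had a log2 fold change of -0.11 (SE 0.15), and miR-142a-3p, which blood cells share, of -0.04 (SE 0.25) at 0.734 to 1.71 RPM. The 3 red blood cell markers summed to 1432 to 1793 RPM in I/R and 1292 to 1603 RPM in sham, nearly all miR-486a-5p, which muscle also makes (log2 fold change 0.09, SE 0.12). The erythroid miR-451a averaged 2.75 ± 1.78 RPM in I/R hearts and 4.72 ± 1.52 RPM in sham hearts (SD, n = 3 each), with a log2 fold change of -0.68 (SE 0.34). No marker was at 0 in all libraries, and 0 of the markers tested passed in limma.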

How the data were processed

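The authors deposited 1 table of signal per mature miRNA and library, which its name calls FPKM; all 6 columns sum to the same total. The genome was mm10 and the tools fastp 0.23.0 and bcl2fastq 2.19.1.403, per the submitters' processing notes; for aligner, miRNA annotation and strand setting, nothing is given in the sources used here. Division by the smallest value above 0 gave whole reads for 100% of the values (tolerance 0.01 reads), 7874103 to 9197869 per library, and levels are given as RPM of these. The values are those of a constant length of 23 nt, and the design, written for a normalized unit, was kept. No source used here mentions molecular identifiers.

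Names that averaged 1 RPM or more and were above 0 in at least 3 libraries were tested with limma 3.58.1 (R 4.3.3, mean-variance trend, two-sided, Benjamini-Hochberg over 409 names, threshold 0.05) on log2(RPM + 1), a scale that understates changes of low names. The procedure was tested on simulated data, with changes larger than that of miR-21a-5p, so this test does not bear on a change of that size. edgeR 4.0.16 and DESeq2 1.42.0 on recovered reads were alternatives. Single values were compared with exact permutation tests that enumerate all labelings. Correlations and exact binomial intervals were computed with scipy 1.17.1.

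Groups and replicate numbers came from the labels, which call the samples biological replicates. Deviations from group means correlated at 0.14, 0.28 and 0.16 between libraries of the same number and at -0.19 to 0.07 otherwise. Deviations sum to 0 within a group, so these values depend on one another and do not establish a pairing. The numbers were taken to pair the libraries in the alternative fits only. The reported tests have no pairing, as fixed in the design, and fits with the number as a block are alternatives. Pairing by number is an assumption of those fits, since no label states a shared day or batch.

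Beside the arms, the rule named the 2 neighbours in level, names that share a seed or all but 3 bases, the 5 (5p) and 3 (3p) names of most like pattern, and 2 members of each list with the smallest p. The members, lists and alternatives were chosen with earlier results of these data known.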

Additional observations from a re-analysis of the deposited data

How the results depend on the processing

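The log2 fold change of miR-21a-5p was positive under all 20 alternatives, from 0.10 with quantile normalization to 0.31 without I/R replicate 1. The filters, limma without trend, robust empirical Bayes and the replicate block cannot move this estimate, and the pseudocounts hardly move it, so it stayed at 0.23. All 20 alternatives use the same hearts, so the count of positive signs is not independent support. The adjusted p of miR-21a-5p was above 0.05 under all 20, from 0.213 with the replicate block to 0.962 in DESeq2. Its unadjusted p was under 0.05 under 3 of them. With the replicate block the log2 fold change was 0.23, as without it, and the share difference was 0.378 points with an exact sign-flip permutation p of 0.25, the smallest that 3 pairs allow. Left-out libraries gave 0.13 to 0.31 for the fold change, 0 to 1 names called and 0.191 to 0.519 points for the share of reads. The number of names called, 0 as reported, was 4 with the replicate block, 1 without a filter, 1 without sham replicate 2 and 2 in DESeq2, and 0 under the other 16. The number of precursors with changed arm balance was 0 under all 12 alternatives. miR-21a-3p entered the limma fit only without a filter, where its adjusted p was 0.903, and no fold change or arm balance is given, since all its libraries were under the limit of 3 reads. Depth limits that arm, while the counting error of miR-21a-5p was at most 0.239% of a value.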
